A study of Homo sapiens with 12 samples.

Results

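SF539 and SNB19 are human glioblastoma cell lines, and this comparison sets the 2 SF539 arrays with scramble siRNA against the 2 SNB19 arrays with scramble siRNA. The 4 arrays were chosen by their titles, out of 12 arrays in the series. The other 8 arrays hold the same lines with PARK2 siRNA1 or PARK2 siRNA2, 2 arrays a group, and PARK2, the gene of the ubiquitin ligase parkin, is not analysed here. All 6 groups received an siRNA with the same lipid reagent and were harvested after 48 h, so none of them is an untransfected culture. SNB19 was grown in DMEM and SF539 in MEM, both with serum, so the line and its medium cannot be told apart. SNB19 is known to share its origin with the glioma line U251, and each line stands for 1 tumour. The labels call the 2 arrays of a group replicates and do not say whether they came from separate cultures. The p-values and SE measure only the spread between arrays of a group, and that spread was estimated from all 12 arrays.

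Interferon-stimulated genes are switched on when type I interferon binds its receptor, the receptor's kinases phosphorylate STAT proteins, and these join IRF9 on promoter elements with paired GAAA blocks. Their products block viral entry, degrade or edit viral RNA, bind foreign RNA ends, and feed peptides to class I molecules. Double-stranded RNA is the classical inducer of the response. Glioblastoma lines also differ in how much of a glial, a mesenchymal or an inflammatory program they keep.

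Each array gave a log2 value for 8545 genes, each represented by 1 probe set. The values carry no depth and no detection call. Across all 16376 probe sets the 2 arrays of a line correlated at r = 0.998 in SNB19 and 0.995 in SF539. Arrays of different lines correlated at 0.93 to 0.932, probe sets not being independent replicates. The median of an array lay between 6.79 and 7.01, its lower quartile between 4.33 and 4.41 and its upper quartile between 9.09 and 9.15. A gene in the lowest quartile of an array has little signal over background, so a fold against such a level is limited by that background. None of the 16 measured leukocyte markers was above the array median on any of the 4 arrays, and their mean level was 4.13 to 4.33. Of the 10 endothelial markers 0 were above the median in SNB19 and 1, ENG, in SF539, and of the 6 melanocyte markers 1 on each array. Of the 12 epithelial markers 1 or 2 were above it on each array. Of the 30 glial and neural genes 13 or 14 were above the median in SNB19 and 7 in SF539, with mean levels of 7.04 and 7.04 against 5.57 and 5.56.

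The lines differed at 4212 of 8545 genes, 49.3%, at an adjusted p under 0.05 (limma with Benjamini-Hochberg adjustment). SF539 was higher at 2101 genes, 24.6%, and SNB19 at 2111, 24.7%. The median difference over all genes, SF539 minus SNB19, was 0.04 on the log2 scale, and its median size was 0.32. When each array was centred on its own median, that median moved to 0.20 and SF539 was the higher line in 66% of the calls in place of 49.9%, so small differences below are read relative to that shift. A difference of at least 4-fold was called at 502 genes, 177 higher in SF539 and 325 higher in SNB19, and 91 of these reached 32-fold. In the 8 PARK2 siRNA arrays, which share no array with the 4 described here, 492 of the 502 genes were called in the same direction, 98%. With a required difference of more than 1.5-fold, 1521 genes were called.

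**Figure D1:**
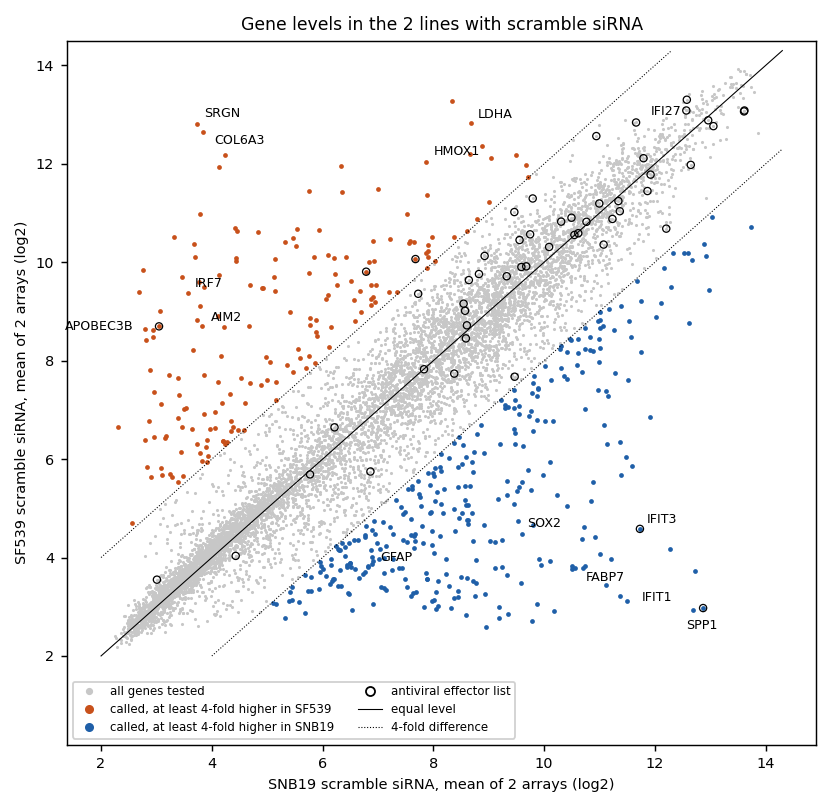
Mean log2 level of each gene in SNB19 (x axis) and SF539 (y axis) with scramble siRNA, 2 arrays each, with the genes called at 4-fold or more in colour and the antiviral effectors circled. Most circles lie along the line of equal level at the bright end, while IFIT1 and IFIT3 lie at 12.87 and 11.73 in SNB19 against 2.97 and 4.58 in SF539, and APOBEC3B, C1S and C1R lie beyond the opposite 4-fold line.

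Of 70 listed antiviral effectors 52 were measured, and 43 of these were above the array median on all 4 arrays. Of the 52, 30 were shared in the sense used here, above the median of all 4 arrays and with the 95% interval of the difference inside 2-fold either way. The same held for 2823 of all 8545 genes, 33.0%, and for 72.9% of the 3871 genes above the median on all 4 arrays. Against that second share stand 30 of the 43 bright effectors, 69.8%, so these antiviral genes were shared about as often as other bright genes. The list held 22 genes called higher in SF539 and 12 called higher in SNB19, 65.4% against 49.3% of all genes, and its median difference was 0.21, against 0.04 over all genes. Of the 30 shared genes 15 were also called, 9 higher in SF539 and 6 higher in SNB19, at differences under 2-fold.

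IFI27, an interferon-induced protein of mitochondrial membranes, read 12.94 and 12.98 in SNB19 and 12.83 and 12.94 in SF539. The levels of the lines overlapped, and the difference was -0.08 ± 0.10 (SE of the fit to all 12 arrays, 2 scramble arrays a line, 95% interval -0.30 to 0.14). IFITM1, which blocks viral fusion at the cell surface, read 13.02 and 13.10 in SNB19 and 12.79 and 12.74 in SF539, a difference of -0.29 ± 0.20 with an adjusted p of 0.261 in limma. The groups did not overlap there, as at 74.6% of all genes, and neither gene passed the main test. With the scramble arrays alone IFITM1 was called at -0.29 (adjusted p 0.0381, limma). With quantile normalization IFI27 was called at -0.28 (adjusted p 0.0322, limma), like IFITM1 higher in SNB19.

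ISG15, a ubiquitin-like protein that is joined to newly made proteins, read 13.62 and 13.59 in SNB19 and 13.07 and 13.05 in SF539. IFI6, an interferon-induced membrane protein, read 13.65 and 13.58 in SNB19 and 13.14 and 13.02 in SF539. Both were somewhat higher in SNB19, at -0.54 and -0.53 for SF539 minus SNB19, with adjusted p of 0.0108 and 8.72e-04 (limma), and both stayed within 2-fold. Without 1 of the 4 scramble arrays the adjusted p of ISG15 was 0.0421 to 0.054, and its call was lost without SNB19 scramble array 1.

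PLSCR1, a phospholipid scramblase with antiviral activity, read 12.58 and 12.55 in SNB19 and 13.10 and 13.06 in SF539. It was higher in SF539 by 0.52 ± 0.09 at its brightest probe set, while the mean of its probe sets gave 1.05, more than 2-fold. IFITM3, which traps entering viruses in endosomes, read 12.54 and 12.61 in SNB19 and 13.32 and 13.28 in SF539, higher in SF539 by 0.73 ± 0.12. BST2, the tether that holds budding virions on the cell surface, read 11.81 and 11.78 in SNB19 and 12.07 and 12.16 in SF539. BST2 was called higher in SF539 by 0.32 ± 0.11, but without any 1 of the 4 scramble arrays its adjusted p was 0.0657 to 0.146 (limma) and the call was lost. OAS1, which makes the second messenger of RNase L, was likewise called at 0.41 ± 0.13 and lost its call without 3 of the 4 arrays and with the mean of its probe sets.

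TRIM21 at -0.01, SP110 at -0.10, TRIM14 at 0.06, GBP1 at 0.20, OASL at 0.22 and SAMHD1 at 0.24 differed by less than the test could call. IFI44 differed by -0.14 at its brightest probe set, but the mean of its probe sets gave -1.30 and a call for SNB19. For GBP1 the mean of probe sets had the opposite sign, at -0.16, and was not called. The products of these genes include a nuclear body protein (SP110), a guanylate-binding GTPase (GBP1), an OAS-like protein (OASL) and a dNTP hydrolase that starves reverse transcription (SAMHD1). A miss of the threshold does not show that the levels are equal, and the intervals were -0.41 to 0.40 for TRIM21 and -0.08 to 0.56 for SAMHD1.

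**Figure D2:**
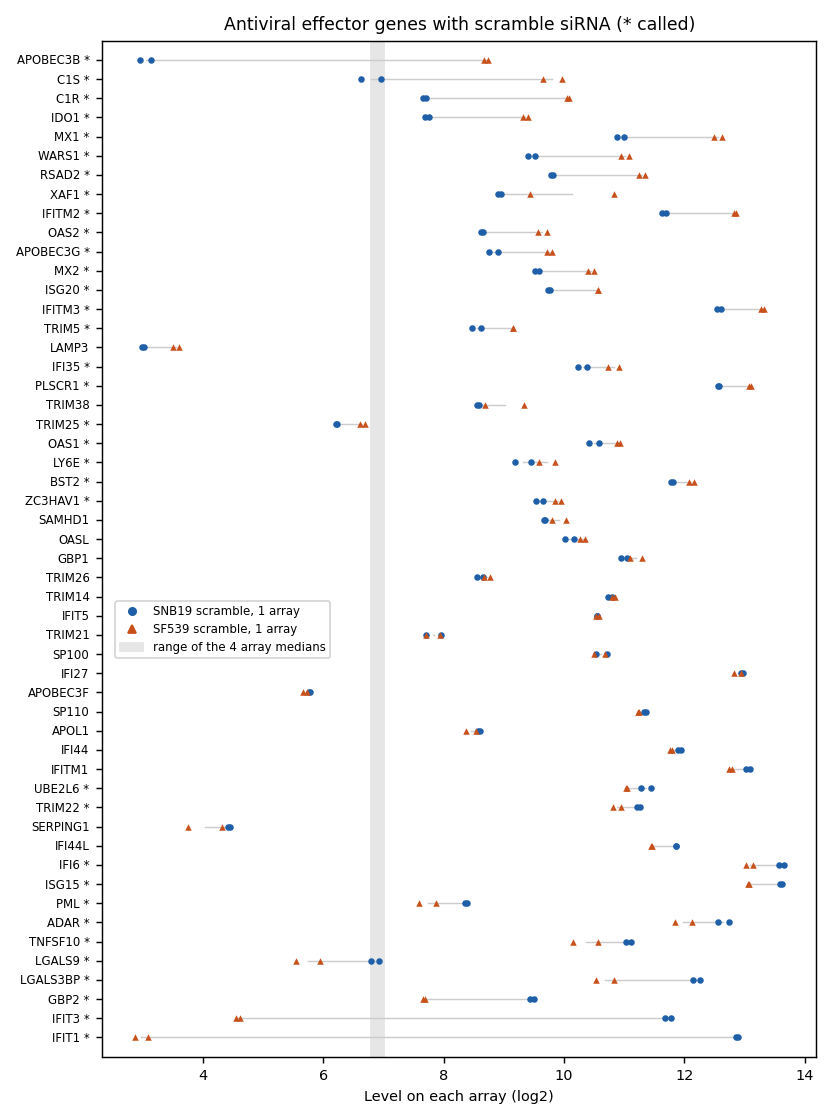
Log2 level (x axis) of each of the 52 measured antiviral effectors on each SNB19 array (blue circles) and SF539 array (orange triangles) with scramble siRNA, in the order of the difference, with an asterisk for genes called and a grey band for the range of the 4 array medians. Most of the 30 shared genes fill the middle rows, and the longest lines belong to APOBEC3B, C1S and C1R, higher in SF539, and to IFIT3 and IFIT1, higher in SNB19.

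A second group of effectors was higher in SF539 by 2-fold or more. It held 9 called genes, most of them above the array medians in both lines. The share of all genes called at 2-fold was not counted. At 4-fold or more 3 of the 52 effectors were called higher in SF539 and 2 in SNB19, against 177 and 325 of 8545 genes. MX1, a GTPase that blocks influenza and other viruses, read 10.998 and 10.88 in SNB19 and 12.63 and 12.50 in SF539, a 3.08-fold difference (1.62 ± 0.13, adjusted p 5.14e-06, limma). RSAD2, viperin, which makes a chain-terminating nucleotide, read 9.81 and 9.78 in SNB19 and 11.25 and 11.34 in SF539, a 2.83-fold difference. IFITM2 was 2.27-fold higher and WARS1, the interferon-inducible tryptophan tRNA synthetase, 2.94-fold higher.

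IDO1, which breaks down tryptophan, read 7.69 and 7.76 in SNB19 and 9.40 and 9.32 in SF539, a 3.1-fold difference. XAF1, an interferon-induced apoptosis factor, was less even, at 8.95 and 8.90 in SNB19 and 9.43 and 10.83 in SF539, and its difference of 1.20 ± 0.43 had an adjusted p of 0.0412 (limma), which ran from 0.00335 to 0.32 without 1 of the scramble arrays. Without SF539 scramble array 2 its difference was 0.50, and its call was lost in 12 of 21 alternatives, which leaves 8 of the 9 genes without it. C1S and C1R, the proteases that start the classical complement cascade, were 8.12-fold and 5.23-fold higher in SF539, at 9.97 and 9.64 and 10.04 and 10.09 against 6.95 and 6.62 and 7.70 and 7.65 in SNB19. OAS2 stood just below 2-fold, at 1.00.

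APOBEC3B was the effector that set SF539 apart most. This cytidine deaminase, known both for restricting viruses and for mutating tumour DNA, read 3.14 and 2.95 in SNB19 and 8.73 and 8.66 in SF539. The SNB19 arrays were in the lowest quartile of their arrays, and the difference was 5.65 ± 0.32 (adjusted p 3.44e-07, limma). Its relatives were closer, APOBEC3G at 0.94 ± 0.11 and APOBEC3F at -0.08 ± 0.10, the second of them not called. LAMP3, an interferon-induced lysosomal protein, and SERPING1, the C1 inhibitor, were low in both lines, at 2.99 and 3.03 in SNB19 and 3.60 and 3.50 in SF539 for LAMP3, and neither was called.

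On the other side, 5 of the 52 effectors were called 2-fold or more higher in SNB19, again without a 2-fold count over all genes. LGALS9 and LGALS3BP, a galectin and a galectin-binding glycoprotein, were 2.17-fold and 2.87-fold higher there. GBP2, an interferon-gamma-responsive GTPase, read 9.50 and 9.43 in SNB19 and 7.69 and 7.65 in SF539, a 3.47-fold difference. ADAR, which edits double-stranded RNA, and TRIM22, an antiviral ubiquitin ligase, were called higher in SNB19 within 2-fold, at -0.67 and -0.35. Without SF539 scramble array 2 the adjusted p of TRIM22 was 0.0594 (limma) and its call was lost.

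IFIT1 and IFIT3 were the effectors that set SNB19 apart. The IFIT proteins are built of helical repeats: IFIT1 binds viral RNA that lacks a methylated cap, and IFIT3 stabilises IFIT1. IFIT1 read 12.85 and 12.88 in SNB19 and 3.08 and 2.86 in SF539, and this difference of -9.90 ± 0.14 was the largest of all 8545 genes (953-fold, adjusted p 4.98e-11, limma). IFIT3 read 11.68 and 11.77 in SNB19 and 4.62 and 4.55 in SF539, a 142-fold difference (-7.15 ± 0.11, adjusted p 7.6e-11, limma). The SNB19 arrays were near the top of the scale and the SF539 arrays close to or below the lower quartile. IFIT5, the family member that binds triphosphate RNA ends, read 10.55 and 10.55 in SNB19 and 10.58 and 10.52 in SF539, and its difference was 0.01 ± 0.08 with an interval of -0.17 to 0.19. The mean over the probe sets of IFIT5 was lower in SF539 by a called difference, at -0.30. IFIT2 is not analysed here.

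The promoters of these genes show which sequences the family shares. The 150 bases before the RefSeq transcription start (build GRCh38.p14, first listed start with a match) are printed for the pair that differed, IFIT1 and IFIT3, and for 3 genes at like levels in both lines, IFIT5, IFI27 and BST2. Capitals mark each match to GAAANNGAAA or, on the other strand, TTTCNNTTTC, the core of the interferon-stimulated response element, and matches may overlap.
IFIT1 (chr10:89392473-89392622, plus strand): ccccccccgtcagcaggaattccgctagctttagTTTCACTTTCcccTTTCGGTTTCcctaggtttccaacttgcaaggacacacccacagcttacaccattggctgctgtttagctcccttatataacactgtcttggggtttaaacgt
IFIT3 (chr10:89327847-89327996, plus strand): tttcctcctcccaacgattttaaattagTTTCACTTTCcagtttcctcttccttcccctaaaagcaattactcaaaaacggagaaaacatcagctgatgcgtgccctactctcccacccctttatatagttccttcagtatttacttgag
IFIT5 (chr10:89414418-89414567, plus strand): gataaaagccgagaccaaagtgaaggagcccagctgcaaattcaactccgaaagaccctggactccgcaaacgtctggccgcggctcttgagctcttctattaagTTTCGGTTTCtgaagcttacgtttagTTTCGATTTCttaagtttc
IFI27 (chr14:94110586-94110735, plus strand): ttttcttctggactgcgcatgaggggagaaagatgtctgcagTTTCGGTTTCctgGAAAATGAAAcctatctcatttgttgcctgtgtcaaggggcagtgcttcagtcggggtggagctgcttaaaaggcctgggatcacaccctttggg
BST2 (chr19:17405631-17405780, minus strand): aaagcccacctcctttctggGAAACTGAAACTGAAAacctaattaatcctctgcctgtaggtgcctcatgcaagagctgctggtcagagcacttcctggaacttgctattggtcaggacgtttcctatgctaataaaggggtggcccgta
IFIT1 has matches that begin 116 and 103 bases before the start, and IFIT3 has 1 at 122. IFIT5 has 2 at 45 and 19, IFI27 has 2 at 108 and 95, and BST2 has 2 overlapping ones at 130 and 124. A second listed start of IFIT3, not printed here, has matches that begin 94 and 51 bases before it. The stretches of IFIT1 and IFIT3, low in SF539, hold matches, as do those of IFIT5, IFI27 and BST2, high in both lines. Over the 300 bases from 250 before to 50 after the start, the motif was present in 3.57% of 35116 promoters of the RefSeq table. Of the 36 effectors with a listed promoter, 24 had a match at 1 start or more, 66.7%, against 4.5% of 6817 measured genes. Among the shared effectors this was 16 of 25, among those called higher in SF539 8 of 14, and among those called higher in SNB19 7 of 9. A match describes letters in this window and is no measurement of binding.

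The genes beside IFIT3 and IFIT1 differed in the same direction. Their order was taken from the RefSeq table, and this stretch was chosen after its values were seen. Reading along the chromosome, GLUD1 read 9.75 and 9.75 in SNB19 and 10.10 and 9.86 in SF539 and was not called, but was called higher in SF539 without SF539 scramble array 2. MINPP1, an inositol polyphosphate phosphatase, read 9.32 and 9.39 in SNB19 and 2.93 and 2.79 in SF539. PAPSS2, which makes the sulphate donor, read 7.99 and 7.67 in SNB19 and 3.12 and 2.87 in SF539. Both were in the lowest quartile on the SF539 arrays, and both differences were called, at -6.50 ± 0.20 and -4.84 ± 0.14. The 3 probe sets of PAPSS2 ranged from -4.84 to -0.32.

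FAS, the death receptor, read 8.77 and 8.72 in SNB19 and 3.08 and 3.36 in SF539, a difference of -5.53 ± 0.12. LIPA, lysosomal acid lipase, read 10.73 and 10.66 in SNB19 and 3.72 and 3.86 in SF539, a difference of -6.90 ± 0.11. ACTA2, smooth muscle actin, and CH25H, an interferon-induced cholesterol hydroxylase, were called higher in SNB19 as well, at -2.88 and -1.80. A second probe set of ACTA2 gave -0.18, and those of FAS ranged from -5.53 to -3.46. Thus MINPP1, PAPSS2, ACTA2, FAS, CH25H, LIPA, IFIT3 and IFIT1 were all higher in SNB19, and LIPF, a gastric lipase gene among them, was low in both lines and not called. On the far side, IFIT5 and KIF20B were not called, with KIF20B at 8.44 and 8.38 in SNB19 and 8.96 and 8.79 in SF539. Without an SF539 siRNA2 array, which the fit's error draws on, KIF20B was called higher in SF539.

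In all 6 SF539 arrays, those with PARK2 siRNAs included, MINPP1, PAPSS2, FAS, CH25H, LIPA and IFIT1 were in the lowest quartile of the array. So were LIPF and ADIRF, the measured gene before GLUD1, both low in SNB19 as well. CH25H was also low in SNB19, at 4.43 and 5.00 with scramble. Its line difference with the PARK2 siRNAs was -0.31 and not called. A scan in RefSeq order of 6645 placed genes, those whose mean was above the lower quartile in at least 1 line, found 8 runs of 3 or more successive genes with a called difference of 4-fold or more in 1 direction. Genes low in both lines, LIPF among them, were passed over in this scan. SNB19 was the higher line in all 8 runs, of which 2 lay in this stretch.

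**Figure D3:**
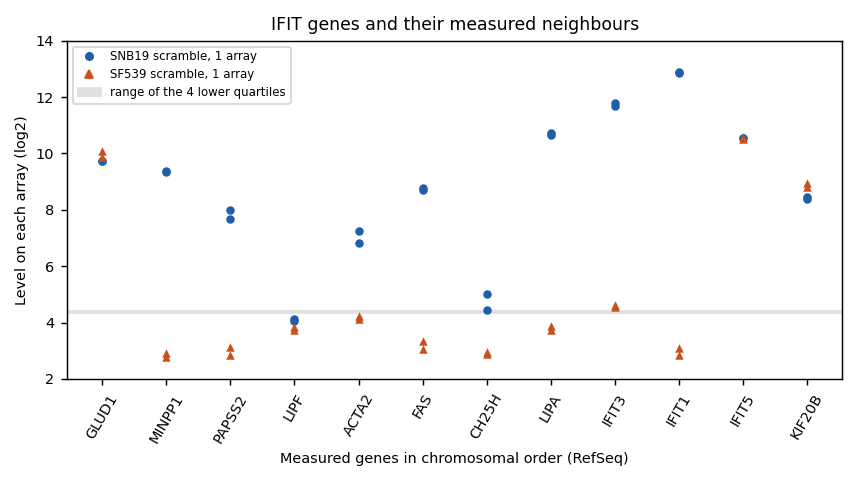
Log2 level on each scramble array (y axis) of IFIT1, IFIT3, IFIT5 and their measured neighbours in RefSeq order (x axis, not to distance), SNB19 in blue circles and SF539 in orange triangles, with a grey band for the lower quartiles. From MINPP1 to IFIT1 the SF539 arrays lie at 2.79 to 4.62 while GLUD1, IFIT5 and KIF20B at either side lie between 8.38 and 10.58 in both lines.

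All 17 measured genes of class I antigen presentation were above the median on all 4 arrays. Of these 14 were shared, 82.4% against 72.9% of all bright genes, and 3 were called higher in each line, 35.3% against 49.3% of all genes. B2M, the light chain of class I, read 13.71 and 13.75 in SNB19 and 13.54 and 13.58 in SF539, and HLA-B, a heavy chain, 13.57 and 13.50 in SNB19 and 13.48 and 13.39 in SF539. HLA-C differed by 0.06 ± 0.09 and HLA-E by -0.22 ± 0.09, neither called. The immunoproteasome subunits PSMB9 and PSMB8, which cut peptides for class I, differed by 0.29 ± 0.15 and 0.31 ± 0.13 and were not called. Some settings did call these small differences, PSMB8 in 7 of 21 alternatives, PSMB9 in 2, and B2M and HLA-E in 6 each, with both proteasome subunits higher in SF539 and B2M and HLA-E higher in SNB19.

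The transporter subunits went opposite ways. TAP1 read 11.93 and 11.79 in SNB19 and 11.09 and 10.90 in SF539 and TAP2 9.90 and 9.81 in SNB19 and 10.53 and 10.42 in SF539, differences of -0.86 ± 0.10 and 0.62 ± 0.10, both called. MICB, a stress ligand of natural killer cells, was 5.8-fold higher in SF539, at 7.92 and 8.02 in SNB19 and 10.49 and 10.53 in SF539. ERAP1, which trims peptides in the endoplasmic reticulum, was 3.63-fold higher by its brightest probe set, but its probe sets ranged from -1.23 to 1.86 and their mean gave -0.08, the opposite sign and not called. Of 11 class II genes 4 were called higher in SF539 and 0 in SNB19, and only CTSS, a protease that also acts outside class II, was above the median on all 4 arrays, its call being lost without SF539 scramble array 2. The 4 called class II genes were 36.4% of that list, against 49.3% of all genes. HLA-DMB, a class II loading factor, read 4.08 and 4.31 in SNB19 and 5.39 and 5.14 in SF539.

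Among the listed sensor, interferon, receptor and signalling genes the lines differed most at IRF7 and AIM2. IRF7, the factor that amplifies interferon genes, read 3.35 and 3.78 in SNB19 and 9.61 and 9.14 in SF539, a 56.2-fold difference (adjusted p 8.77e-09, limma). AIM2, a cytosolic DNA sensor, read 3.68 and 3.91 in SNB19 and 9.05 and 9.16 in SF539, a 39.8-fold difference. For both genes the SNB19 arrays were in the lowest quartile and the SF539 arrays near or above the upper one.

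Other genes of these lists were closer. IRF9, a DNA-binding factor of the interferon response, read 9.09 and 9.04 in SNB19 and 9.40 and 9.03 in SF539 and was not called. IRF1 and IRF2 were higher in SF539 at 0.77 and 0.79, as were the kinase JAK1 at 0.54 and the phosphatase PTPN2 at 0.71. STAT3, TYK2 and JAK2 were higher in SNB19, at -0.75, -0.72 and -0.70. In all, 5 of 14 signalling genes were called higher in SF539 and 4 in SNB19, 64.3% against 49.3% of all genes.

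IFNB1, interferon beta itself, read 5.52 and 5.11 in SNB19 and 6.22 and 7.02 in SF539, below the array medians on 3 of the 4 arrays, and was called higher in SF539 by 1.31 ± 0.26 (adjusted p 0.00188, limma). Its receptor chain IFNAR1 was higher in SF539 by 0.84 ± 0.14. IFNA1 and IFNA2 were low in both lines, at means of 2.73 and 2.91 for IFNA1. Of 9 sensors and adaptors 1 was called higher in SF539 and 2 in SNB19, 33.3% against 49.3% of all genes. The RNA sensors TLR3 and IFIH1 and the kinase EIF2AK2 were not called, at -0.10, -0.18 and -0.12, and the adaptor MYD88 was higher in SNB19 at -0.72 ± 0.09.

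Among interferon-induced chemokines, CCL5 read 8.07 and 8.22 in SNB19 and 7.89 and 8.38 in SF539 and CXCL10 7.78 and 7.66 in SNB19 and 7.14 and 7.54 in SF539, neither called. Their SE of 0.37 and 0.38 leave intervals of -0.84 to 0.82 and -1.23 to 0.48. CX3CL1, fractalkine, was 4.5-fold higher in SNB19, at 7.71 and 7.54 in SNB19 and 5.83 and 5.08 in SF539. CXCL11, with means of 5.55 in SNB19 and 6.49 in SF539, was called higher in SF539 by 0.95 ± 0.32 (adjusted p 0.0326, limma). Of 6 chemokines 1 was called higher in each line, 33.3% against 49.3% of all genes.

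Inflammatory genes of the NF-kB type were mostly higher in SF539. Of 27 measured genes 18 were called higher in SF539 and 3 in SNB19, 77.8% against 49.3% of all genes, and the median difference was 1.42. IL6 read 8.83 and 8.92 in SNB19 and 12.34 and 12.37 in SF539, an 11.2-fold difference. CXCL8, which draws neutrophils, read 6.89 and 7.11 in SNB19 and 11.39 and 11.57 in SF539, a 22.3-fold difference. PTGS2, the inducible cyclooxygenase, read 3.81 and 3.67 in SNB19 and 8.74 and 8.89 in SF539, and PTX3, a soluble pattern receptor, 5.58 and 5.45 in SNB19 and 10.29 and 10.35 in SF539.

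In each of these 4 genes both SF539 arrays were above both SNB19 arrays by more than 3 on the log2 scale. The chemokine CXCL2 and the cytokines IL24 and IL11 differed by 5.03 ± 0.31, 5.63 ± 0.51 and 4.25 ± 0.36, with 1.66 for a second IL11 probe set. NFKB1 and TNFAIP3, a subunit and a feedback inhibitor of the pathway, differed less, at 0.48 and 0.39. NFKB1 lost its call without SF539 scramble array 1 and TNFAIP3 without array 2, at adjusted p of 0.0733 and 0.0601 (limma). Against this direction, VCAM1, a leukocyte adhesion molecule, read 8.33 and 8.54 in SNB19 and 5.45 and 5.40 in SF539, and CCL2, a monocyte chemokine, 6.25 and 6.25 in SNB19 and 4.08 and 4.39 in SF539, both higher in SNB19.

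**Figure D4:**
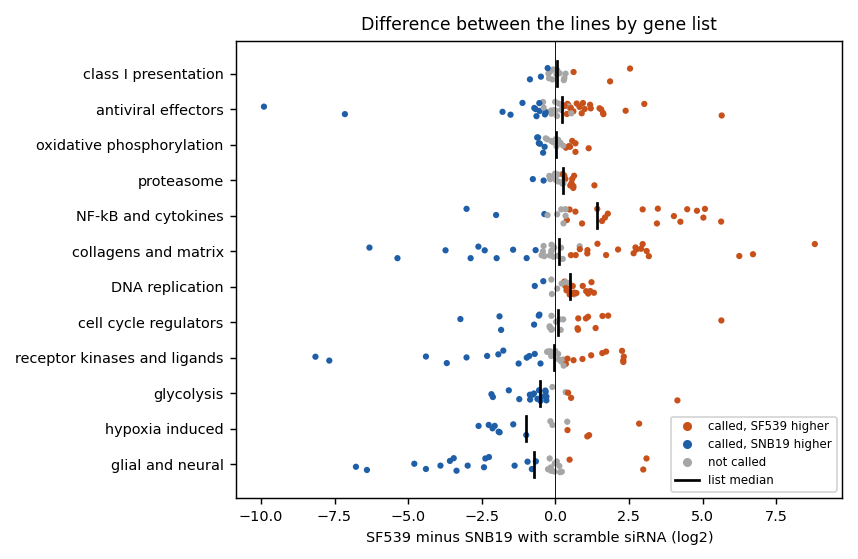
Difference between the lines, SF539 minus SNB19 with scramble siRNA (x axis, log2), for every measured gene of 12 lists (rows), coloured by the call, with a black bar at the list median. Class I, oxidative phosphorylation and proteasome genes cluster near 0, antiviral effectors have a narrow core with far points on both sides, NF-kB genes lie to the right with a median of 1.42, and glial genes to the left with a median of -0.73.

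Glial identity genes were more often higher in SNB19. Of 30 measured, 16 were called higher in SNB19 and 3 in SF539, 63.3% against 49.3% of all genes. The median difference was -0.73. FABP7, the radial glial fatty acid binding protein, read 10.56 and 10.56 in SNB19 and 3.77 and 3.81 in SF539, a 109-fold difference. PTPRZ1, a receptor phosphatase of glial progenitors, read 9.05 and 9.30 in SNB19 and 2.90 and 2.66 in SF539, an 84.4-fold difference. SOX9, a glial transcription factor, read 11.54 and 11.47 in SNB19 and 7.71 and 7.50 in SF539, and SOX2, a stem cell factor, 9.62 and 9.42 in SNB19 and 4.50 and 4.97 in SF539.

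GFAP, the astrocyte filament protein, read 7.08 and 6.72 in SNB19 and 3.82 and 4.04 in SF539, and S100B 7.46 and 7.29 in SNB19 and 3.83 and 3.76 in SF539. On the SF539 arrays GFAP, S100B, FABP7 and PTPRZ1 were all in the lowest quartile, so these defining markers had little signal over background in the line labelled SF539. OLIG2, AQP4, SLC1A2, ALDH1L1, SOX10, NCAN and MBP had means below the array medians in both lines and were not called. GLUL was above the median on all 4 arrays, within 2-fold and not called. The probe sets of GFAP, FABP7 and SOX2 disagreed, with differences from -2.98 to 0.17, -6.77 to -0.10 and -4.79 to -0.38. Higher in SF539 were CSPG4, the NG2 proteoglycan, at 4.15 and 4.51 in SNB19 and 7.30 and 7.33 in SF539, and NKX2-2, an oligodendrocyte lineage factor, at 4.94 and 5.03 in SNB19 and 8.08 and 8.08 in SF539.

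Matrix genes split by gene. Of 42 measured, 18 were called higher in SF539 and 10 in SNB19, 66.7% against 49.3% of all genes. COL6A3, a collagen VI chain, read 3.85 and 3.83 in SNB19 and 12.62 and 12.69 in SF539, a 450-fold difference (adjusted p 8.56e-10, limma), and LUM, lumican, 2.74 and 2.64 in SNB19 and 9.27 and 9.54 in SF539. COL3A1 read 3.42 and 3.49 in SNB19 and 9.70 and 9.70 in SF539, although another of its probe sets showed no difference (range -0.08 to 6.25). THY1, a mesenchymal surface protein, was the reverse, at 10.89 and 10.89 in SNB19 and 5.60 and 5.46 in SF539, and so were COL11A1 at -6.31 ± 0.27 and TNC, tenascin C, at -3.73 ± 0.14, with -2.30 for a second TNC probe set.

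Of 25 genes of the mesenchymal glioma type 10 were called higher in SF539 and 7 in SNB19, 68% against 49.3% of all genes. Of the 21 above the median on all 4 arrays 10 were shared, 47.6% against 72.9% of all bright genes. TGFBI, a TGF-beta-induced matrix protein, and SNAI2 were higher in SF539 at 1.97 ± 0.09 and 1.09 ± 0.08. CDH2, N-cadherin, and TWIST1 were higher in SNB19 at -1.97 ± 0.14 and -0.92 ± 0.09. TIMP3, a metalloproteinase inhibitor, was 8.58-fold higher in SF539.

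Growth factor genes formed a different set in each line. Of 36 receptor kinases and ligands 11 were called higher in SF539 and 13 in SNB19, 66.7% against 49.3% of all genes. In SNB19 the EGFR ligand TGFA read 11.27 and 11.46 against 3.14 and 3.30, and PDGFRA, the PDGF receptor alpha, 11.10 and 11.07 against 6.68 and 6.71. FGFR3 and IGF1R were also higher in SNB19, at -3.69 ± 0.20 and -1.94 ± 0.09. Other probe sets of PDGFRA, FGFR3 and IGF1R gave differences as small as -0.07, -0.09 and -0.14. In SF539 the ligands HBEGF, VEGFC and PDGFA were 4.96-fold, 5.01-fold and 4.81-fold higher, and the receptor AXL 4.95-fold.

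The Wnt antagonists DKK1 and SFRP1 were higher in SNB19, DKK1 at 12.98 and 12.98 in SNB19 and 9.41 and 9.45 in SF539 and SFRP1 at 8.50 and 8.48 in SNB19 and 3.44 and 3.79 in SF539, with -2.62 for another SFRP1 probe set. Of 15 Wnt genes 4 were called higher in SF539, the receptor FZD2 2.83-fold among them, and 6 in SNB19. Called in all were 66.7%, against 49.3% of all genes.

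Cell cycle inhibitors differed in opposite directions. CDKN2A, which encodes p16 and ARF, read 4.68 and 4.20 in SNB19 and 10.15 and 10.01 in SF539, with probe sets from 0.14 to 6.69. RB1, the pocket protein that p16 acts through, read 9.64 and 9.96 in SNB19 and 6.41 and 6.74 in SF539, and its relative RBL2 10.11 and 10.20 in SNB19 and 8.34 and 8.28 in SF539, both higher in SNB19. A second probe set of RB1 gave -0.52. CDKN1A, p21, was 3.72-fold higher in SNB19. The G1 genes CCND1, CCNE2 and CDK4 were higher in SF539, at 1.79 ± 0.19, 1.37 ± 0.13 and 1.04 ± 0.09. CCND3 was called higher in SNB19 at -0.54 ± 0.17, and CCNE1, CCND2 and CDK6 were not called. Of 24 cell cycle regulators 9 were called higher in SF539 and 6 in SNB19, 62.5% against 49.3% of all genes. With the PARK2 siRNAs the line differences of CCND1, CCNE2 and CDK4 were smaller, at 0.52, 0.49 and 0.57.

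DNA replication genes were more often higher in SF539, 16 of 25 against 2 in SNB19, 72% called against 49.3% of all genes. Sizes were small, with a median of 0.49 and MCM4, a helicase subunit, at 1.31 ± 0.13. Of 22 mitosis genes 7 were called higher in SF539 and 3 in SNB19, 45.5%, close to the 49.3% of all genes.

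With scramble, glycolysis and hypoxia genes were mostly higher in SNB19. Of 21 glycolysis genes 16 were called higher in SNB19 and 3 in SF539, 90.5% against 49.3% of all genes, with a median of -0.51. SLC2A1, the glucose transporter, read 10.96 and 11.05 in SNB19 and 8.89 and 8.77 in SF539, and PFKFB3, an activator of glycolytic flux, 9.98 and 10.05 in SNB19 and 7.84 and 7.95 in SF539. LDHA, which turns pyruvate into lactate, went the other way and furthest, at 8.70 and 8.64 in SNB19 and 12.85 and 12.79 in SF539, a 17.7-fold difference.

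Of 15 hypoxia-induced genes 8 were called higher in SNB19 and 4 in SF539, 80% against 49.3% of all genes. BNIP3, a mitophagy receptor, read 12.32 and 12.34 in SNB19 and 10.23 and 10.16 in SF539, and STC1 10.78 and 10.86 in SNB19 and 8.04 and 8.39 in SF539. STC2, its relative, was 7.19-fold higher in SF539, and ADM, adrenomedullin, 2.21-fold.

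Lipid and redox genes also marked the lines. SREBF1, the factor that drives fatty acid synthesis, read 10.08 and 9.86 in SNB19 and 5.65 and 5.70 in SF539. SCD, the stearoyl desaturase, read 11.75 and 11.74 in SNB19 and 8.29 and 8.07 in SF539, and both were higher in SNB19. Their line differences were smaller with the PARK2 siRNAs, at -1.62 and -2.09. Of 19 genes of cholesterol and fatty acid synthesis 8 were called higher in SNB19 and 4 in SF539, 63.2% against 49.3% of all genes. Those higher in SF539 included SQLE at 0.65, IDI1 at 0.59 and ACAT2 at 0.39. HMOX1, haem oxygenase, read 7.94 and 7.81 in SNB19 and 12.03 and 12.04 in SF539 and ME1, malic enzyme, 4.14 and 4.13 in SNB19 and 9.51 and 9.99 in SF539, both higher in SF539. The probe sets of ME1 ranged from 0.16 to 5.84 and those of SCD from -3.57 to -2.59. AKR1B10 and AKR1C3, aldo-keto reductases of the same NRF2 list, were higher in SNB19 at -3.38 ± 0.21 and -2.06 ± 0.17. Of the 16 measured genes of that list 4 were called higher in SF539 and 5 in SNB19, 56.2% against 49.3% of all genes.

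In lysosomes, NPC1, the cholesterol exporter, and the protease CTSZ were higher in SF539 at 3.47 ± 0.09 and 5.62 ± 0.19, while CTSH was higher in SNB19 at -4.68 ± 0.40. The second probe set of CTSZ gave only 0.27. Of 18 lysosome genes 5 were called higher in SF539 and 7 in SNB19, 66.7% against 49.3% of all genes. SQSTM1, the autophagy adaptor p62, was 3-fold higher in SF539 by its brightest probe set and differed by 2.78 on the log2 scale by the other. MAGEA12, a cancer-testis antigen, read 11.53 and 11.60 in SNB19 and 8.44 and 8.51 in SF539, while 12 of the 15 cancer-testis genes were in the lowest quartile of all 4 arrays.

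Housekeeping machinery was shared. Of 25 oxidative phosphorylation genes 23 were shared and 13 were called, 7 higher in SF539 and 6 in SNB19. Of 25 proteasome genes 24 were shared, with 10 called higher in SF539 and 2 in SNB19. The genes not shared were COX7A1, a tissue-specific cytochrome oxidase subunit that was low in both lines and not called, CYC1, cytochrome c1, at 1.13 ± 0.15, and PSMD12, a proteasome cap subunit, at 1.33 ± 0.13, the latter pair higher in SF539. The shared counts stand beside 33.0% of all genes and 72.9% of the genes bright on all 4 arrays. Called were 52% of the oxidative phosphorylation genes and 48% of the proteasome genes, near the 49.3% of all genes.

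A strict rule picked out the genes particular to 1 line: called, at least 4-fold apart, in the upper quartile on both arrays of 1 line and in the lowest quartile on both arrays of the other. It found 14 genes for SF539, 0.164% of all, and 24 for SNB19, 0.281%. All 38 were called in the same direction in the PARK2 siRNA arrays. With the mean of a gene's probe sets in place of the brightest, 35 genes met the rule, 21 of them among the 38.

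For SF539 the largest was SRGN, the proteoglycan serglycin, at 3.50 and 3.95 in SNB19 and 12.66 and 12.95 in SF539. PLIN2, a lipid droplet coat, read 4.23 and 4.24 in SNB19 and 12.23 and 12.14 in SF539 by its brightest probe set, with a range over probe sets of 0.01 to 7.95. ANPEP, aminopeptidase N, THBD, thrombomodulin, and DLC1 were 145-fold, 134-fold and 104-fold higher. SERPINB1, an elastase inhibitor, and HTATIP2 were 85.2-fold and 146-fold higher. Other probe sets gave 2.31 for HTATIP2 and 4.79 for THBD on the log2 scale.

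COL6A3, LUM, COL3A1, IRF7, IL24 and ME1, described above, also met the rule for SF539. Outside it, because 1 SNB19 array or both lay above the lower quartile or the SF539 arrays below the upper one, were BASP1, a membrane protein of growth cones, at 4.71 and 3.57 in SNB19 and 11.93 and 11.94 in SF539, SCG5 at 6.28 ± 0.44, SIGLEC15 at 6.18 ± 0.23, FABP5 at 5.95 ± 0.48 and QPCT at 5.84 ± 0.26.

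For SNB19 the largest after IFIT1 were SPP1, osteopontin, at 12.67 and 12.71 in SNB19 and 2.91 and 2.93 in SF539, and EFEMP1, a fibulin, at 12.73 and 12.73 in SNB19 and 3.81 and 3.62 in SF539. The SE of EFEMP1 was 0.92, with levels of 4.68 and 8.68 on the SF539 siRNA2 arrays, and that of IGFBP5, an insulin-like growth factor binding protein, was 0.91, with 4.55 and 8.49 there. GPM6B, a neural membrane proteolipid, read 11.37 and 11.62 in SNB19 and 3.39 and 2.86 in SF539. IGFBP2, just outside the rule, was 271-fold, CNR1, a cannabinoid receptor, 155-fold and NDP, norrin, 135-fold higher.

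TMT1A, a thiol methyltransferase, LYPD1, PEG10, an imprinted gene of retrotransposon origin, and MFAP3L were 151-fold, 123-fold, 121-fold and 113-fold higher in SNB19. Other probe sets of TGFA, CNR1 and TMT1A gave smaller differences, as small as -0.75, -0.55 and -0.20. The same held for MFAP3L, PEG10, IGFBP5 and GPM6B, at -1.09, -4.08, -1.23 and -5.18.

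How far these line differences held beyond scramble was read from the 8 PARK2 siRNA arrays. There 4636 genes differed between the lines, 54.3%. Called in the same direction in both comparisons were 3170 genes, 75.3% of the scramble calls and 68.4% of the PARK2 siRNA calls, and 158 were called in opposite directions. The line difference itself differed between scramble and the PARK2 siRNAs at 1629 genes, 19.1% (limma interaction), and was lower with scramble at 920, 10.8%. Without SNB19 scramble array 1 or 2 that count was 952 or 1071, and without SF539 siRNA2 array 1 it was 2686.

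Most antiviral genes were among the latter. Of 52 effectors 45 had a lower SF539-minus-SNB19 difference with scramble than with the PARK2 siRNAs and 0 a higher one, and of 17 class I genes 16 and 0. The median line difference of the effectors was 0.21 with scramble and 3.21 with the PARK2 siRNAs. IFI27, level between the lines with scramble, read in SNB19 3.99 and 3.97 with siRNA1 and 4.75 and 4.49 with siRNA2, and in SF539 12.74 and 12.73 with siRNA1 and 12.76 and 12.84 with siRNA2. MX1 read in SNB19 4.41 and 4.40 with siRNA1 and 5.00 and 4.66 with siRNA2, and in SF539 12.44 and 12.42 with siRNA1 and 12.45 and 12.78 with siRNA2. The like levels of these antiviral genes in both lines were thus a feature of the scramble arrays, in which the SNB19 levels were high.

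APOBEC3B did not follow the other effectors, at 5.65 with scramble and 5.66 with the PARK2 siRNAs. IFIT1 and IFIT3 stayed higher in SNB19 in both, at -9.90 and -7.15 with scramble and -4.08 and -1.03 with the PARK2 siRNAs. In the opposite direction, the glial genes GFAP and CRYAB, a small heat shock protein, had line differences of -2.98 and -3.45 with scramble and -6.70 and -6.52 with the PARK2 siRNAs.

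The line difference of most hypoxia-induced genes also depended on the siRNA. With the PARK2 siRNAs 8 of 15 were called higher in SF539 and 4 in SNB19, with a median of 0.51 against -0.99 with scramble, and 12 of 15 had a lower line difference with scramble in the interaction test. Of 21 glycolysis genes 10 had a lower line difference with scramble and 0 a higher one, with a median of -0.11 with the PARK2 siRNAs. Of 25 DNA replication genes 7 had a higher line difference with scramble and 0 a lower one. With the PARK2 siRNAs 8 of the 25 were called higher in SF539 and 6 in SNB19. Over all 8545 genes 709 had a higher line difference with scramble and 920 a lower one. With the PARK2 siRNAs 2379 of all genes were called higher in SF539 and 2257 in SNB19, 54.3% in all. The DNA replication calls with the PARK2 siRNAs were near that share.

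**Figure D5:**
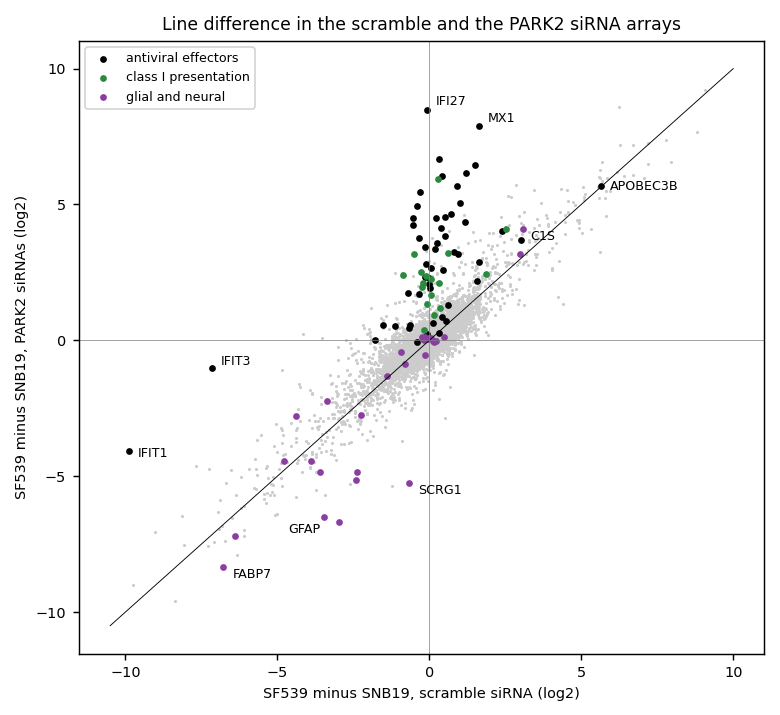
Difference between the lines with scramble siRNA (x axis, 2 arrays a line) and with the PARK2 siRNAs (y axis, 4 arrays a line), log2, SF539 minus SNB19, for each gene, with antiviral effectors in black, class I genes in green and glial genes in purple. Most black and green points rise above the diagonal near 0 on the x axis, APOBEC3B lies on it at 5.65 and 5.66, and IFIT1 and IFIT3 keep negative differences on both axes.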

How the data were processed

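Biotin-labelled total RNA was measured on 12 Affymetrix arrays, 2 in each of 6 groups. As deposited by the authors, values are log2 and run from 2.01 to 14.14. The submitters' processing notes name Partek. How the arrays were normalized, corrected for background and mapped to a build is not given in the sources used here.

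Of 16376 probe sets 14038 had 1 gene, 792 several and 1546 none, and probe sets of several genes were not used. The probe set with the highest mean stood for a gene, which left 8545 genes, 3361 of them with several probe sets. Names follow the RefSeq table of GRCh38.p14. A model of 6 group means was fitted to all arrays (limma 3.58.1, lmFit and eBayes, R 4.3.3; 6 residual and 3.65 prior degrees of freedom), tests being two-sided and p-values adjusted after Benjamini and Hochberg, with a threshold of 0.05. Differences are SF539 minus SNB19, ± is the SE of the fit, and intervals are 95%. Precision is limited by the number of arrays.

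The test was tried on simulated data for this comparison, with 8545 genes. It recovered 62.7% of 67 genes set to differ by 1.5-fold, 94% of 67 set to differ by 2-fold and 100% of 66 at 4-fold. Of its 181 calls 10 were false. Only those genes were set to differ, with independent normal noise, while 49.3% of genes were called in the real comparison. The rates therefore describe the simulated setting and not the real comparison.

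The members, gene lists and tests were chosen with earlier results of these data known. Genes were named by rule: the 15 largest called differences each way, up to 4 a list and direction by smallest p, any antiviral or antigen presentation gene, 8 each way for the interaction and 10 each way for genes particular to a line. The genes beside IFIT1 and IFIT3, GFAP, S100B, SOX2, OLIG2, CXCL2, IL24, IL11, NFKB1 and TNFAIP3, and other list genes outside the rule, were named after their values were seen. Alternatives were quantile normalization, median centring, the dimmest 40% left out, the mean of probe sets, each probe set alone, a trended robust prior, array weights, the scramble arrays alone, no SF539 siRNA2 arrays, a replicate block, the omission of each array in turn and a required difference above 1.5-fold.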

Additional observations from a re-analysis of the deposited data

Results flagged for a closer look

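The difference between SF539 and SNB19 with scramble siRNA was tested against the same difference with the PARK2 siRNAs, and it differed at 1629 genes (limma interaction). The 8 most negative of the called values, scramble minus PARK2 siRNAs on the log2 scale, belonged to genes of the interferon response. They were -8.54 for IFI27, -6.35 for BST2, -6.28 for MX1, -6.12 for IFIT3, -5.81 for IFIT1, -5.73 for IFITM1, -5.65 for PSMB9 and -5.64 for OAS1. For IFI27 the SE was 0.12 and the adjusted p 1.59e-10 (limma).

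The 8 most positive values included genes of glial cells. They were 4.60 for SCRG1, 4.14 for SERPINA3, 3.72 for GFAP, 3.35 for PODXL, 3.07 for ESM1, 3.07 for CRYAB, 2.79 for MTSS1 and 2.71 for SPARCL1. SERPINA3, a protease inhibitor of reactive astrocytes, read 5.85 and 6.10 in SNB19 and 4.74 and 4.76 in SF539 with scramble, and in SNB19 10.11 and 10.03 with siRNA1 and 9.95 and 9.63 with siRNA2. With 2 arrays a group, no test for a single deviating array was made.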

How the results depend on the processing

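The scramble comparison called 3516 to 4821 genes under the settings that kept all arrays or whole groups, 1 value a gene and no fold minimum. With every probe set on its own 6417 probe sets were called, 7181 in the PARK2 siRNA arrays, and 4474 were above the median and within 2-fold in both lines. With a 1.5-fold minimum the counts were 1521 with scramble, 1667 with the PARK2 siRNAs and 265 for the interaction. Leaving out 1 array gave 3438 to 4694 calls with scramble and 952 to 2686 for the interaction, the lone partner being assumed to vary like the other groups. The number of antiviral effectors shared by the lines was 24 to 30 over these settings, every probe set on its own left out, and of class I genes 14.

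Among 200 followed gene results 156 kept their direction and call in every setting. With the mean of probe sets ERAP1 turned to -0.0798 and lost its call, and IFIT5 turned to -0.3009 and gained one. The cause of these shifts was not tested. A replicate block called 4182 genes with scramble and 4115 of them were called without it. Replicate differences of the 6 groups correlated at -0.18 to 0.109, so the numbers do not pair the arrays. Weak signal limits genes of the lowest quartile, and 2 arrays a group limit all others.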

Other observations

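Smaller gene lists are given beside the 49.3% of all genes that were called. Of 9 metallothionein and zinc genes 6 were called higher in SF539 and 1 in SNB19, 77.8%, among them SLC39A14, a zinc and iron importer, at 9.87 and 9.83 in SNB19 and 11.82 and 11.74 in SF539. MT3, the brain metallothionein, was the gene higher in SNB19, at -1.36 ± 0.12. Of 15 YAP and TAZ target genes 7 were called higher in SF539 and 2 in SNB19, 60%, with NT5E, the surface nucleotidase that makes adenosine, 6.46-fold higher at 9.38 and 9.60 in SNB19 and 12.20 and 12.16 in SF539. Of 16 genes induced by MAP kinases 7 were called higher in SF539 and 3 in SNB19, 62.5%. FOSL1, an AP-1 subunit, was 4.63-fold higher in SF539, and SPRY1, a feedback inhibitor of receptor kinases, 6.68-fold higher in SNB19.

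Of 26 homeobox genes 6 were called higher in SF539 and 9 in SNB19, 57.7%, near the share of all genes. HOXB2, a gene of the hindbrain pattern, read 5.52 and 6.23 in SNB19 and 8.80 and 8.86 in SF539, while the forebrain genes LHX2 and PAX6 were higher in SNB19 at -2.57 ± 0.20 and -2.17 ± 0.23, with -0.88 for a second LHX2 probe set. Of 20 p53 target and apoptosis genes 8 were called higher in SF539 and 5 in SNB19, 65%, with BCL2A1, a survival protein, 16.4-fold higher in SF539. ENG, endoglin, an endothelial marker that mesenchymal cells also carry, was 19.5-fold higher in SF539, with a log2 difference of 0.64 at its other probe set.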
